A study of Caenorhabditis elegans with 2 samples.

Results

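The sri genes encode a family of chemoreceptors of the nematode Caenorhabditis elegans, and the data show where the transcription factor ZFH-2, which has zinc fingers and homeodomains, was found on chromatin in and around them. They were taken by name as the protein-coding genes called sri followed by a number, 61 of 19973 nuclear protein-coding genes, and the family was selected on the signal of its promoter summits in the authors' conservative peak list. The peaks of that list at sri genes are therefore described with no test. The study was chromatin immunoprecipitation sequencing (ChIP-seq) with an antibody against GFP on strain RW12167, in which the allele st12167, an insertion made by CRISPR, fuses zfh-2 to GFP (zfh-2::GFP) and adds an unc-119(+) marker with loxP sites, in an unc-119(tm4063) III background. There were 2 biological replicates of 1 group of whole young adults, 64.5 hours old, which had been bleached and starved at the first larval stage to synchronise them. With 1 group and no control library analysed here, no comparison between conditions can be made, and both replicates are given to show the spread. Chromatin came from all cells of the animal, so the cells in which ZFH-2 occupied a site are not known, and sensory neurons are few among them.

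Chemoreceptors of this kind are G protein-coupled receptors that sit in the cilia of sensory neurons and bind odorants, pheromones or other small molecules. In nematodes the families have expanded by tandem duplication, so members often lie side by side on a chromosome arm. The sri family belongs to the same superfamily as srh, srd, srj and str. Most sri genes have no assigned ligand, and an exception is sri-14, whose product acts in the ASH neurons in avoidance of concentrated diacetyl. ZFH-2 is the nematode relative of the vertebrate ZFHX transcription factors.

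A summit is the base at which a peak is highest. The sequences at the strongest chromosome II summits in sri promoter windows are shown here because most of them are the GC-rich stretches, in introns and between genes, that the results turn on. Each reaches 50 bp to either side of the summit in the WBcel235 genome (RefSeq, the same assembly as build ce11 of the peak lists) and is read 5′ to 3′ on the strand of the sri gene named, with the 11 bases centred on the summit in capitals.
sri-71: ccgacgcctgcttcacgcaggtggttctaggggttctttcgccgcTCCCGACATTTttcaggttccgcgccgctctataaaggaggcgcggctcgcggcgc
sri-30: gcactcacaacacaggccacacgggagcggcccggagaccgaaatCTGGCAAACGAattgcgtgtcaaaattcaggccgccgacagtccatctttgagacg
sri-37: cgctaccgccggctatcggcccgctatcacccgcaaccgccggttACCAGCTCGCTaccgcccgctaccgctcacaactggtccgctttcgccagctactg
sri-32: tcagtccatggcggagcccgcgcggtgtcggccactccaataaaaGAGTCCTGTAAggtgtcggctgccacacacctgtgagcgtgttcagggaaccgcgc
sri-38: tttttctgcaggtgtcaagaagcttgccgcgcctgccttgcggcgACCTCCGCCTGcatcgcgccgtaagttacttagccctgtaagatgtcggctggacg
sri-33: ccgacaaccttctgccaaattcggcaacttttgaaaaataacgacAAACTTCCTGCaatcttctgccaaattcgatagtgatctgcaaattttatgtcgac

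The window of sri-71 lies at chrII:2627319-2627419, that of sri-30 at chrII:3045603-3045703 and that of sri-37 at chrII:2628520-2628620, all on the plus strand. The window of sri-32 lies at chrII:3154986-3155086 and that of sri-33 at chrII:3157578-3157678, both on the minus strand, and that of sri-38 at chrII:2610439-2610539 on the plus strand. The GC content was 64.4% for sri-71, 57.4% for sri-30, 67.3% for sri-37, 62.4% for sri-32, 59.4% for sri-38 and 39.6% for sri-33, against 35.4% over the nuclear genome. The sri-37 window, which lies in an intron of sri-71, repeats the word CCGC 8 times. The sri-33 window is the exception, with the lowest GC content of those shown, though above that of the genome, and it repeats AAAT 4 times. Its summit is the centre of a peak 470 bp wide that also takes in GC-richer stretches. Within 50 bp of the points 150 bp before and 175 bp after the summit on the plus strand, GC content was 57.4% and 60.4%.

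In the conservative list 13 of 61 sri genes (21.3%) had a summit between 1000 bp upstream of the 5' end and the 3' end of the gene, beside 19.5% of all protein-coding genes (3904 of 19973). The sri share was thus near the genome's own share. Among the 1249 other chemoreceptor genes the share was 3.52% (44 genes), and sri had the highest share of the 23 named families. By family, a summit was found at 5% of the 220 srh genes, 3.11% of the 193 str genes, 0 of the 39 srj genes and 0 of the 67 srd genes, while sre had 11.1% of 54 genes. In the narrower promoter window, which starts at the same point and stops 200 bp into the gene, the count was 8 of 61 sri genes (13.1%), beside 8.82% of all protein-coding genes and 1.28% of other chemoreceptor genes. No test was made of these differences, since the sri genes were chosen with this measure known.

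The 13 genes with a summit were unevenly spread over the chromosomes. Chromosome II held 11 of them among its 31 sri genes (35.5%), against 20.5% of all protein-coding genes and 7.25% of other chemoreceptor genes there. Chromosome V had 1 of 21 (4.76%), against 13% of all protein-coding genes and 3.68% of other chemoreceptor genes. Chromosome I had 1 of 8 (12.5%, against 25.8% of all protein-coding genes) and chromosome IV 0 of 1 (against 17.2%). On chromosome II all 11 were among the 29 sri genes that lie between 2580820 and 3289031, bounds drawn around that cluster which leave out sri-45 and sri-46 further left, a share of 37.9%, beside 27% of the 185 other protein-coding genes in the same stretch and 0 of its 10 other chemoreceptor genes. Many genes of that stretch that are not chemoreceptors had a summit as well.

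There were 13 distinct summits, because 4 summits lay in the windows of a pair of neighbouring sri genes and 4 genes held more than 1. Their signal, the authors' own value for each peak, had a median of 125.6, close to the median of 119.4 over all 7085 nuclear summits, and 4 of the 13 were among the strongest 20%. The sources used here do not give the scaling of the signal, which serves only to describe and rank peaks within 1 list.

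The strongest was upstream of sri-5 on chromosome I (gene from 11182795 to 11186206, plus strand), at 11182557, 238 bp before the 5' end. Its signal was 272.1 in the conservative list (rank 501 of 7085), 179.7 in replicate 1's own thresholded list (rank 325 of 4281) and 90.6 in replicate 2's (rank 1418 of 4696). It was called in both replicates but stood far higher in replicate 1. The same summit lies 494 bp upstream of the divergently placed gene rsr-1, which encodes a splicing coactivator, so it cannot be given to sri-5 alone.

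The next was upstream of sri-71 (II 2627749 to 2629196, plus strand) at 2627369, 380 bp before the 5' end, with a signal of 254.0 and rank 608. Replicate 1 gave it 133.4 (rank 737) and replicate 2 gave it 122.4 (rank 582). The replicates placed it at like ranks, and no other gene's promoter window held it. A further summit of sri-71 lay inside the gene at 2628570, in intron 3 of 4, with a signal of 212.0 (rank 1023), 105.3 in replicate 1 (rank 1310) and 108.4 in replicate 2 (rank 852). That position is exactly 1000 bp upstream of sri-37 (II 2629570 to 2631231), the last base the window takes in, and sri-37 had no other summit. In replicate 1 the matching summit lay 4 bp further off, outside the sri-37 window.

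The pair sri-29 (II 3044323 to 3046115) and sri-30 (II 3046175 to 3048154), which are separated by 59 bp, shared a summit at 3045653. It had a signal of 212.7 (rank 1019), 131.5 in replicate 1 (rank 750) and 91.7 in replicate 2 (rank 1375), and the replicate 2 summit lay 91 bp away. The base is in an intron of sri-29, 1330 bp after its 5' end and 522 bp before that of sri-30. A summit in the promoter window of one sri gene was thus also a summit in the body of its neighbour.

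The same arrangement recurred in the run of sri-34, sri-33 and sri-32 on the minus strand. An intron of sri-33 (II 3154558 to 3156849) held a summit at 3155036, which is 553 bp upstream of sri-32 (II 3152976 to 3154483), with a signal of 141.8, 71.3 in replicate 1 and 72.9 in replicate 2. An intron of sri-34 (II 3157265 to 3159085) held a summit at 3157628, which is 779 bp upstream of sri-33, with a signal of 113.3 and 75.3 in replicate 1. Replicate 2 had that peak in its longer ranked list alone, with a signal of 39.4. In all, 4 of the 8 summits in sri promoter windows lay in an intron of the sri gene upstream, and the other 4, at sri-5, sri-71, sri-38 and sri-47, lay between genes. The summit of sri-38 (II 2610489, 373 bp upstream) had a signal of 125.6 and that of sri-47 (II 2656661, 245 bp upstream) 103.1, and neither was in a replicate's own thresholded list.

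The remaining summits were inside genes. At sri-78 the summit at II 3186074 had a signal of 148.8, 80.4 in replicate 1 and 71.4 in replicate 2. A second summit of sri-5, at I 11185583 in an intron, had rank 4619 and a −log10 global IDR of 2.57. A second summit of sri-32, at II 3153904, had 92.7, and the annotation places both an intron of sri-32 and the non-coding RNA gene T10D4.16 there. The summit of sri-10 (V 18804790, in an intron) had 90.3. These last 3 were in neither replicate's own thresholded list. The weakest, at sri-40 (II 3179471, signal 73.5), was the only one of the 13 in a coding exon, and it was likewise in neither. The 6 weakest of the 13 summits, and no other, sat at the centre of a peak exactly 470 bp wide, as did 39.5% of all peaks in the list, so their position is less sharply given than that of the stronger ones. At the codon of sri-40 where the summit lies, residue 231 of 320, the aligned position of the 60 other sri genes had a median GC content of 41.1% (26.7 to 51.5%) within 50 bp, against 52.5% in sri-40, and 0 of them had a summit within 100 bp.

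**Figure D1:**
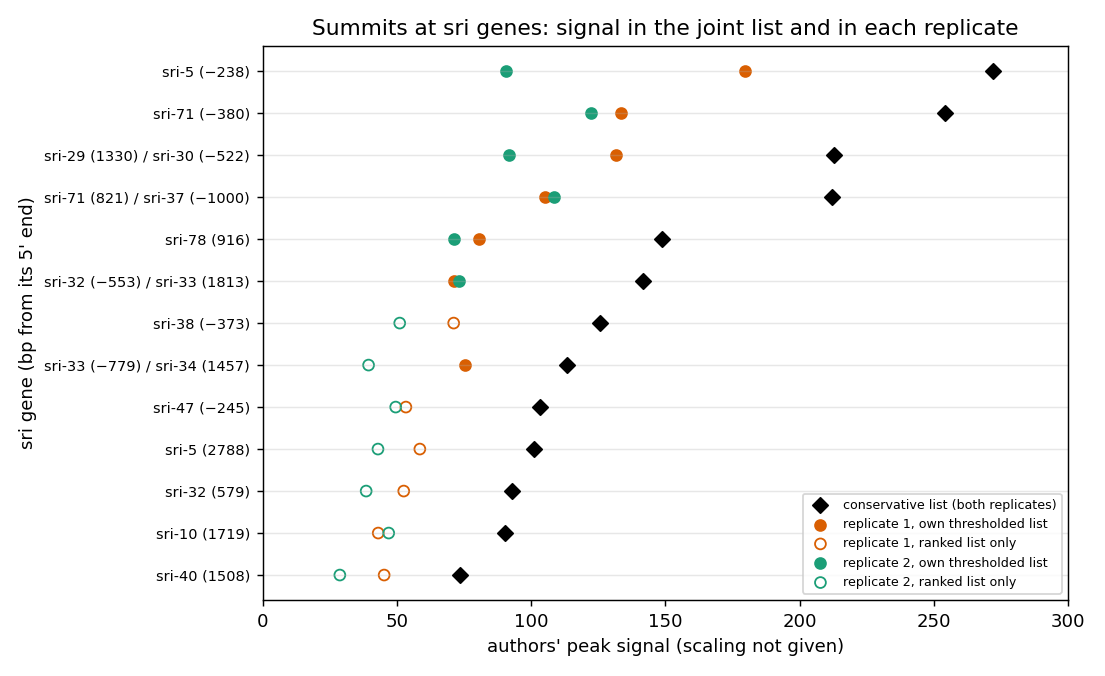
Authors' peak signal (x axis, scaling not given) of each of the 13 summits at sri genes, with the gene and the position from its 5' end in bp on the y axis. Diamonds are the conservative list, filled circles a replicate's own thresholded list and open circles peaks found in a replicate's ranked list alone; the 6 strongest summits have filled circles in both replicates.

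The plot of signals also shows the support of each summit by replicate. The 6 strongest overlapped a peak in both replicates' own thresholded lists, 1 was in replicate 1's list alone, and 6 were in neither. Those 6 overlapped a peak in the ranked list of each replicate. Counted by gene, replicate 1's own list gave 8 sri genes (13.1%, beside 14% of all protein-coding genes and 2.8% of other chemoreceptor genes) and replicate 2's gave 9 (14.8%, beside 14.7% and 3.6%), and 7 genes had a summit in both lists (11.5%, beside 11.4%). The sri shares in the replicates' own lists were thus also near those of the genome. At sri-67 (V 19987984 to 19990504) replicate 2's own list had summits at 930 bp (signal 54.4) and 728 bp (8.8) upstream of the 5' end, with no overlapping peak in either of replicate 1's lists and none in the conservative list.

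The threshold of the list cut through this family. The score of a peak, at most 1000, follows the irreproducible discovery rate (IDR), which is low for peaks that repeat between the lists compared. The sri-40 summit was just inside, with a score of 832 where the lowest in the list was 830, and its −log10 global IDR was 2.00. Just outside was a peak in an intron of sri-28 at II 3050012, 1334 bp after the 5' end of sri-28 and 991 bp before that of sri-31, with a signal of 76.9, a score of 779 and a −log10 global IDR of 1.88. Next was a peak 889 bp upstream of sri-10, with a score of 710. No sri gene had a conservative summit between 1000 and 2000 bp upstream of its 5' end. In the ranked list, which holds weaker peaks too, 29 sri genes (47.5%) had a summit in the same window, beside 40% of all protein-coding genes and 12.8% of other chemoreceptor genes. Chromosome II held 24 of the 29, which is 77.4% of its sri genes, beside 48.3% of all protein-coding genes and 29% of other chemoreceptor genes there. On chromosome V the ranked list had a summit at 2 sri genes (9.52%), beside 28.3% of all protein-coding genes and 11.6% of other chemoreceptor genes. Of the 21 sri genes on chromosome V, 18 (85.7%) had no summit in the ranked list or in either replicate's ranked list, beside 65.5% of all protein-coding genes and 84.9% of other chemoreceptor genes there, and sri-4, sri-18 and sri-73 were among the 18. The pair sri-13 and sri-14 on chromosome I, whose proteins are 99.7% identical, also had none in these lists. Whether reads could be placed uniquely in genes this alike was not tested.

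Of the 13 summits of this family 8 were in introns, and the share of all summits in introns was not computed. The introns in question were long and GC-rich for the family. The 61 genes have 291 introns between coding exons of the longest coding transcript, with a median length of 52 bp. The 8 that held a summit had lengths from 190 to 768 bp and a median of 499.0 bp. A longer intron has more bases in which a summit can fall, and this was not accounted for. Long introns were not rare, since 72 without a summit were at least 190 bp long. Those 72 had a median GC content of 37.5% (23.2 to 49.4%), against a median of 50.7% (39.9 to 64.2%) in the 8 with a summit, and 28 of the 72 reached the lowest of the 8. The 8 were picked for holding a summit, and summits over the whole list were GC-rich, so this is a description only.

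**Figure D2:**
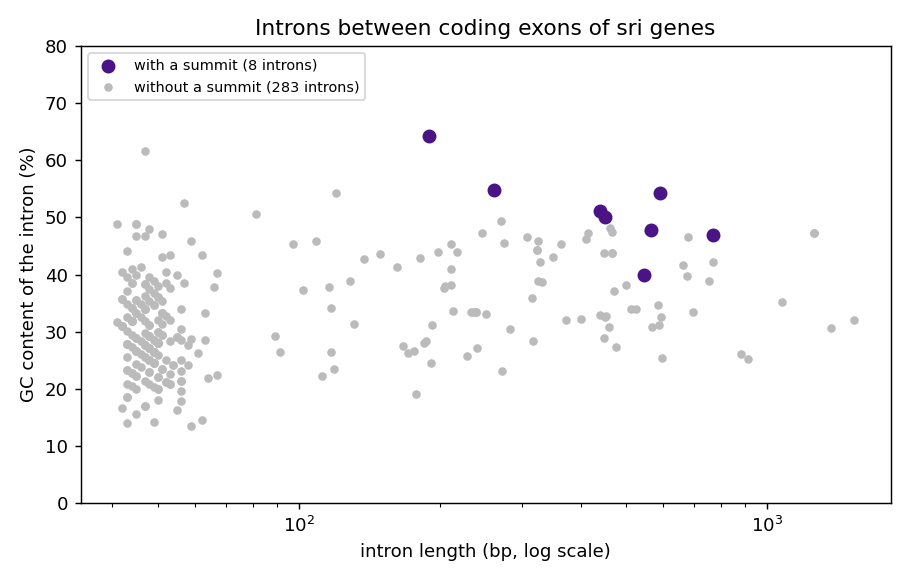
Length (x axis, bp, log scale) and GC content (y axis, %) of the 291 introns between coding exons of the 61 sri genes, with the 8 introns that hold a summit in large dark points. The dark points lie at lengths of 190 bp and more and at GC contents from 39.9 to 64.2%.

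Related genes differed in these introns. In sri-29 the intron with the summit is 592 bp long with 54.2% GC, and the other 4 introns of the gene have 52, 49, 44 and 45 bp. An intron at the same place in the aligned proteins (within 3 columns, same phase) was found in 45 other sri genes, with a median of 49 bp, and 44 of them were shorter. In sri-30, the neighbour in the pair, it has 44 bp and 40.9% GC. Other introns with a summit were less extreme beside those at the same place, with 35 of 50 shorter for sri-71, 29 of 41 for sri-32 and 7 of 10 for sri-34. The counts were 46 of 50 for sri-78, 43 of 45 for sri-5, 10 of 11 for sri-10 and 9 of 10 for sri-33. These introns were taken because they hold a summit, for which a longer intron has more room. In sri-71 the intron is 190 bp long with 64.2% GC, and that of sri-73, its most similar relative by protein (51.8% identical), has 89 bp and 29.2% GC and no summit. In sri-33 the intron has 768 bp and in sri-34, 84.5% identical by protein, 441 bp, and each holds a summit, although the sequence at the summit in sri-33 found no match in sri-34.

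Close relatives by protein could differ in having a summit in the conservative list. The proteins of sri-38 and sri-39 are 97.9% identical. sri-38 had the summit 373 bp upstream, in a stretch with 59.4% GC, while sri-39 had none in the ranked list either, and the summit's sequence had no match in the sri-39 window. Upstream of sri-39 and in its first 200 bp the GC content within 50 bp of a base reached 48.5%, against 60.4% at sri-38. Further into sri-39, 352 bp after its 5' end, it reached 59.4%, as at the sri-38 summit, and no summit was called there. The proteins of sri-78 and sri-57 are 98.8% identical. The sri-78 intron with the summit (451 bp, 50.1% GC) corresponds to an intron of 364 bp and 45.3% GC in sri-57, where only 35 bases matched the summit's sequence. At sri-57 the conservative list had no summit, and the highest −log10 global IDR in the ranked list was 1.03, 1171 bp after the 5' end, against 3.26 at sri-78. That weaker sri-57 summit, at II 2671249, lay within the 35 matched bases (II 2671239 to 2671273, 91.4% identical). This pair thus differed in the strength of a peak at a partly matching site, and not in its presence. The proteins of sri-47 and sri-48 are 88.9% identical, and sri-48 had no summit in the conservative or ranked list, peaks in replicate 1's ranked list alone, and no match to the sequence upstream of sri-47. Over the whole family the nearest relative was a median of 68.5% identical.

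GC content around the 13 summits was 57.2% ± 6.87 (SD over 13 summits) within 50 bp, against 38.6% ± 6.45 in stretches of the same size 300 bp to either side, and it was higher at 12 of the 13. For all 7085 summits the mean was 55.1% ± 7, so sri summits resembled the others in this. The exception was the sri-40 summit in a coding exon, with 52.5% at the summit and 55.4% beside it. Its sides differed, with 47.5% at 300 bp before it and 63.4% at 300 bp after it on the plus strand. This summit is the centre of a peak 470 bp wide, so its position is less sharply given.

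**Figure D3:**
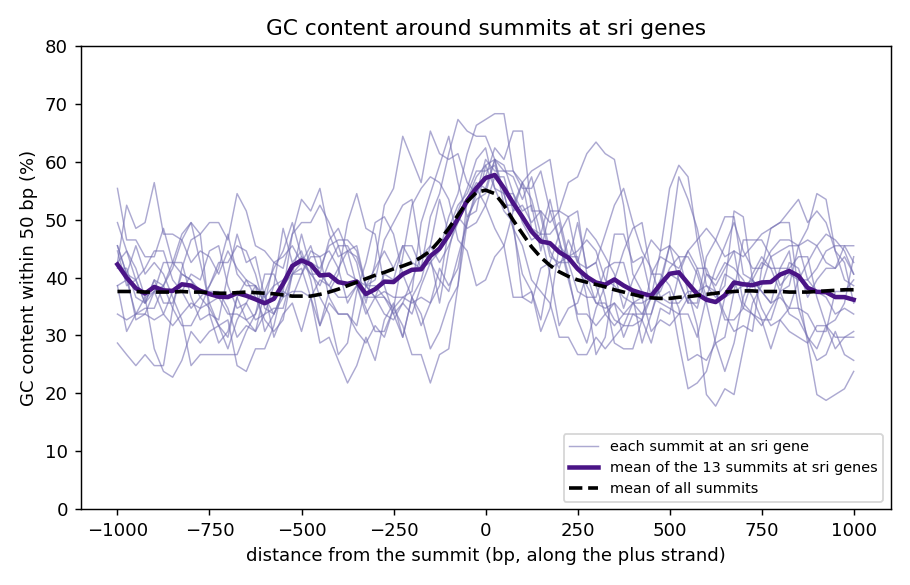
GC content within 50 bp (y axis, %) at distances of up to 1000 bp from the summit (x axis) for each of the 13 summits at sri genes (thin lines), their mean (thick line) and the mean of all 7085 summits (dashed line). At the summit the mean is 57.2% for sri genes and 55.1% for all summits, and both means are lower at 300 bp to either side.

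The GC-richest stretch in the window differed between sri genes with and without a summit. In the 13 genes with a summit the highest GC content within 50 bp of any base was 60.4 to 71.3%, median 65.3%, and in the 48 without one it was 42.6 to 64.4%, median 54%. Windows of neighbours can overlap, so genes are not separate observations here. The same richest base is shared by sri-71 and sri-37, by sri-29 and sri-30, by sri-32 and sri-33, and by sri-15 and sri-16. The ranges overlap in 5 genes without a summit, sri-15, sri-16, sri-17, sri-60 and sri-67, which reached 60.4% or more. That value is the lowest among the sri genes with a summit, so all 13 of them reach it by choice. The shares of sri genes with a summit on each side of it are therefore not given. The same value, taken from these sri genes, separated all protein-coding genes into 4945 at or above it and 15028 below it. Of the 4945, 58.8% had a summit, and of the 15028, 6.64% did. Both the highest GC content and the summit were sought over the same window, which is longer in longer genes, and its length was not accounted for. Of the other chemoreceptor genes 12.4% reached it, of which 26.5% had a summit. Coding sequence as a whole had a median GC content of 42.3% in sri genes with a summit and 40% in those without. For the 1000 bp upstream of the 5' end the medians were 40% and 35.5%. These are contents of whole stretches, which vary less than a highest value, so the differences are not compared with those above. The GC-richest stretch of a gene with a summit was not always at the summit. In sri-10 it lay upstream of the 5' end (64.4%), while the only summit lay 1719 bp after that end (55.4%). In sri-40 it lay 1796 bp after the 5' end (63.4%), and the summit 1508 bp after it (52.5%). In sri-5 it lay between the summits, at 1083 bp (61.4% against 52.5% and 59.4%). In others, such as sri-71, it lay near a summit, at 857 bp beside 821 bp. The part of GC content in the calls was not tested.

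**Figure D4:**
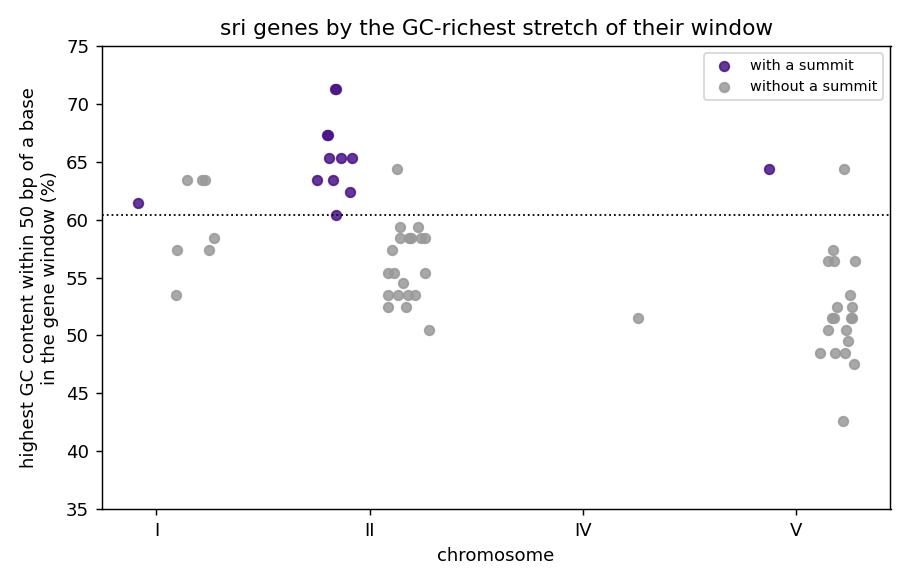
Highest GC content within 50 bp of any base (y axis, %) in the window of each of the 61 sri genes, by chromosome, with genes that have a summit in dark points left of those without in grey. The dotted line at 60.4% marks the lowest value among the 13 genes with a summit, and 5 genes without a summit lie above it. Neighbouring genes with overlapping windows can share a stretch.

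The sequence at several sri summits recurs in the genome. The bases within 50 bp of each summit were compared with the genome by BLAST, and other loci with at least 50 matched bases were counted. The sequence upstream of sri-71 matched 103 other loci on 6 chromosomes, of which 46 (44.7%) had a conservative summit within 250 bp and 31 had one in both replicates' own lists. For the sri-71 intron the numbers were 11 loci and 7 with a summit (63.6%), for the sri-78 intron 30 and 15 (50%), and for the stretch upstream of sri-38, 22 and 12 (54.5%). By comparison 3.33% of the nuclear genome lies within 250 bp of a summit. The genome has 35.4% GC, below the mean at these matched loci. The share among other stretches of like GC content was not computed, so 3.33% is not a matched background.

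The intron of sri-5 was different. Its sequence matched 602 other loci, of which 19 (3.16%) had a summit, a share near that of the genome. Among loci that matched the sri-71 upstream sequence, the mean GC content was 60.5% at those with a summit and 58.2% at those without. The same means were 72.6% and 77.7% for the sri-71 intron, 52.1% and 52.5% for the sri-78 intron, 61.8% and 61.1% for sri-38, and 49.8% and 46.7% for the sri-5 intron. Those of the sri-5 intron were the lowest of these sequences, and whether this bears on its low share was not tested. The mean was thus higher at loci with a summit for some of these sequences and lower for others. No spread was computed for these means, and those of the sri-71 intron rest on 11 loci, of which 7 had a summit. Whether GC content differs between copies with and without a summit was not tested. The sequences at the summits in sri-29, sri-34 and sri-40 matched no other locus. Copies this similar can share reads, and the highest identity over at least 50 bases was 96.4% for the sri-5 intron and 90% for the sri-71 upstream sequence. The sources used here do not say how reads from repeats were placed.

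**Figure D5:**
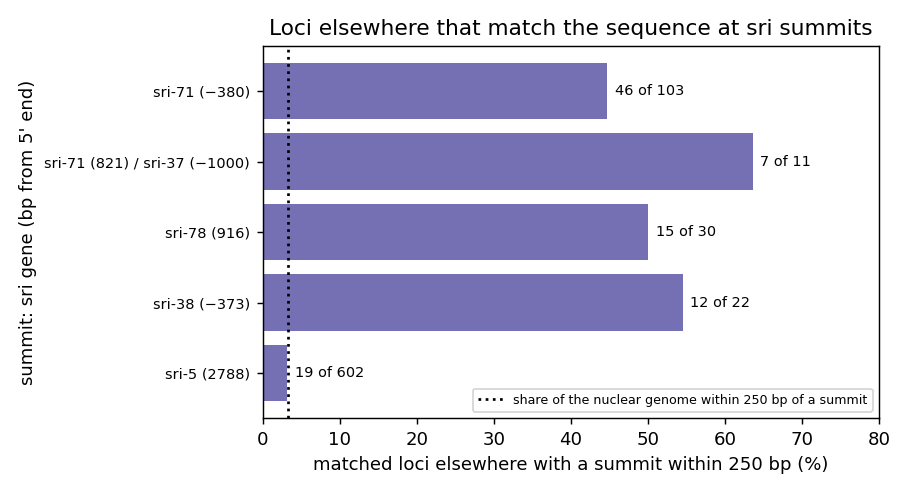
Share of loci elsewhere in the genome (x axis, %) that match the sequence at a summit and have a conservative summit within 250 bp, for the 5 sri summits with at least 10 such loci (y axis). Numbers beside the bars are loci with a summit of all matched loci. The dotted line is the 3.33% of the nuclear genome, of any GC content, that lies within 250 bp of a summit. The sri-5 intron lies beside it and the other 4 bars lie above it.

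A few of the matches fell in other sri genes. Upstream of sri-67, 70 bases that were 80% identical to the sri-71 upstream sequence and 71 bases that were 85.9% identical to the sri-5 intron lay on either side of the replicate 2 summit at 930 bp. In sri-39, 112 bases that were 71.4% identical to the sri-32 intron summit had 56.4% GC and no summit.

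Short words were searched on both strands within 50 bp of the 13 summits. CACCTG, an E-box form, was found at 3, those of sri-71 (upstream), sri-38 and the shared summit of sri-32 and sri-33, and in 4.97% of all 7085 summits. The GA repeat GAGAGAGA, the E-box forms CAGCTG and CACGTG and the homeodomain core TAATTA were found at 0, and at 4.02%, 6.2%, 3.81% and 0.692% of all summits. These words are descriptions of letters and not of sites.

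Genes that act downstream of chemoreceptors, or that control them, were looked up from a list of 30 names, of which 29 matched a gene. A promoter summit was found at 5 (17.2%), beside 8.82% of all protein-coding genes, and none of the 5 encodes a G protein subunit or an ion channel. The strongest was at eat-16, which encodes a regulator of G protein signalling (signal 517.8 at I 9722342, 338.0 in replicate 1 and 183.2 in replicate 2). It was followed by crt-1, which encodes calreticulin (515.9 at V 6100838, 305.3 in replicate 1 and 213.0 in replicate 2), and by kin-29, a kinase gene that controls chemoreceptor expression (430.7 at X 2852654, 222.3 in replicate 1 and 206.8 in replicate 2). egl-4, which encodes a cyclic GMP-dependent kinase, had 203.8 at IV 1848109 (102.7 in replicate 1 and 100.1 in replicate 2). These 4 were in both replicates' own lists, and unc-101, a clathrin adaptor gene, with 94.2, was in neither. Within the wider gene window 9 of the 29 had a summit (31%, beside 19.5% of all protein-coding genes), among them the channel gene osm-9 and the G protein gene gpa-1, while odr-3, tax-2, tax-4, odr-4 and odr-1 had none.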

How the data were processed

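Peak lists from 2 ChIP-seq replicates were used. Per the labels, peaks are in build ce11 and chromatin was sonicated; per the file lists deposited with the samples, thresholded and ranked lists of each replicate come from its own alignments and the series' lists from both. The sources used here name no aligner or peak caller, and a possible control experiment named in the labels was not analysed here. Each deposited peak has a score, the authors' signal, a summit offset and, in ranked lists, −log10 of the global IDR. The ranked series list used is the one whose peaks hold those of the conservative list. Depth is unknown, as no list gives read counts, and no interval was computed. Mitochondrial peaks were left out.

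Genes came from Ensembl release 115 (WBcel235), within whose chromosomes every conservative peak lies. For 48 of the 61 sri genes the 5' end is the start of coding sequence, so it is not a measured transcription start. Replicate peaks were matched by an overlap of at least 1 bp. Proteins translated from the longest coding transcript were aligned with MAFFT 7.526 (identity over aligned residues), and summit sequences were searched with BLAST 2.17.0 (E value at most 0.001; loci closer than 500 bp counted once). Python 3.11.15, NumPy 2.4.6 and matplotlib 3.10.9 were used, and the window assignment was tested on simulated data. Members, lists, GC, intron and repeat comparisons were chosen with earlier results of these data known. Named are all sri genes with a conservative summit, those with one in a replicate's own list alone, their nearest relatives by protein, genes sharing a promoter summit, and listed signalling genes with the 4 strongest promoter summits; other genes were named after their values were seen. No test was made, because there is 1 group.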

Additional observations from a re-analysis of the deposited data

How the results depend on the processing

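The 13 sri genes kept a summit with the authors' other thresholded list, with any overlap of the peak interval and with 2000 bp upstream, and their number stayed at 13 with 1 summit per merged region. From each replicate's own list alone, the ranges were 8 to 9 genes with a summit, 5 to 6 with a promoter summit, 7 to 9 distinct summits, a highest signal of 122.4 to 179.7 on scales that differ from that of the joint list, and a mean GC content of 57 to 57.2%. In replicate 1's list sri-10, sri-37, sri-38, sri-40 and sri-47 were lost, and in replicate 2's sri-10, sri-34, sri-38, sri-40 and sri-47 were lost and sri-67 was added. With 500 bp upstream, 4 sri genes had a promoter summit and sri-30 and sri-37 no longer had a summit at all, since their only summits lie 522 and 1000 bp upstream. In the stronger 50% of peaks 7 distinct summits remained, with a mean GC content of 59.7%, and within 100 bp rather than 50 bp of the summit the mean GC content was 54.3%. Among other chemoreceptor genes a promoter summit was found at 9 in the stronger 50% of peaks, at 7 with 500 bp and at 41 with 2000 bp upstream. The signalling list gave 4 to 7 genes under every alternative run. No paired analysis was possible because there is 1 group. Depth is unknown, so a gene without a summit cannot be told from one below detection.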
